A study of Mus musculus with 48 samples.

Results

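The major histocompatibility complex (MHC) class I genes were examined in WT and DKO cells as a set of 10 genes out of the 55450 in each deposited table, namely H2-T10, H2-T22, H2-T23, BC023719, H2-K1, H2-D1, H2-Q4, H2-Q7, H2-M3 and B2m. The 10 genes were chosen by name, and the choice was made from measured values of these libraries, since the H2-T genes differed between DKO and WT preadipocytes. For that contrast the values of the 10 genes below are therefore a description, with no test, and nothing is read from their calls. The comparisons within MEFs and over the days of differentiation were tested. Earlier results of them were known when the genes were chosen, so they are not independent of the choice in the strict sense.

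RNA was sequenced from cultured preadipocytes, isolated from the inguinal white fat (iWAT), at days 0, 3, 6 and 9, and from mouse embryonic fibroblasts (MEFs) at days 0, 4, 8 and 12, while both were induced to become brown-like adipocytes. There were 3 WT and 3 DKO libraries for each cell type and day, 48 libraries in all. WT cells came from mice with both genes intact, and DKO cells came from mice that are Hmgn1-/- and Hmgn2-/- and so lack a pair of nucleosome-binding proteins. The labels give C57BL/6 as the strain of all 4 kinds of cell. The study's reporting summary lists the DKO mice as a B6.Cg line and the WT mice as C57BL/6. Whether these mice differ in sequence at the H2-T genes cannot be seen from counts per gene and was not tested. Preadipocytes came from 8- to 12-week-old mice, and MEFs from embryos. The day 0 cells had not received the inducing medium, which held insulin, dexamethasone, IBMX, T3 and rosiglitazone and was given to preadipocytes for 4 days and to MEFs for 8 days, each followed by insulin and T3 for 4 days. No label says which animal or embryo a library came from, so the p-values below measure the spread between libraries, which may be partly technical.

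Class I molecules are cell surface proteins made of a heavy chain and a shared light chain, β2-microglobulin, which B2m encodes. The classical heavy chains, H2-K1 and H2-D1, show peptides from inside the cell to CD8 T cells. The non-classical ones have narrower roles: H2-T23 encodes Qa-1, a ligand of receptors on natural killer cells, H2-T22 and H2-T10 encode ligands of certain γδ T cells, H2-M3 presents bacterial formylated peptides, and H2-Q4 and H2-Q7 belong to the Qa-2 region. Interferons raise the transcription of class I genes through interferon regulatory factors and the transactivator NLRC5.

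All members but B2m lie on chromosome 17 (mm10 coordinates from GENCODE M21). H2-T23 (chr17:36029773-36032855) and H2-T22 (chr17:36037128-36042747) are neighbours on the minus strand. H2-T10 (chr17:36115876-36121465, minus strand) is annotated as a polymorphic pseudogene, which means that it is coding in some strains and not in others. BC023719 (chr17:36111426-36117121, plus strand) is annotated as an antisense gene and overlaps the 3′ part of H2-T10. The libraries were strand-specific, but how the counting used strand is not given in the sources used here, so reads of the overlap may have been assigned to either gene. H2-K1 (chr17:33996017-34000347), H2-D1 (chr17:35262730-35267499), H2-Q4 (chr17:35379617-35385290) and H2-Q7 (chr17:35439155-35443773) lie before the H2-T genes and H2-M3 (chr17:37270220-37274484) after them. B2m is on chromosome 2 (chr2:122147686-122153083).

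Where their coding sequences align, H2-T10 and H2-T22 are so alike that few bases tell their reads apart. Their annotated coding sequences differed at 11 of 637 aligned bases, an identity of 98.3%, whereas H2-T22 was 74.8% identical to H2-T23 and 72% to H2-K1. The 90-base coding stretch within 1 exon where H2-T10 and H2-T22 differed most is shown as an example of letters that tell coding reads apart. The division of reads also rests on other parts of the transcripts, whose unique stretches are counted below. It is at chr17:36041468-36041557 for H2-T22 and at chr17:36120204-36120293 for H2-T10, both in exon 4 of the GENCODE M21 transcript and on the minus strand, and is written in the direction of the RNA with the 4 differing bases in capitals:
H2-T22: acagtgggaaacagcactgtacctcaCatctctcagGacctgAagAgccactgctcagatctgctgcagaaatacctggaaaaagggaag
H2-T10: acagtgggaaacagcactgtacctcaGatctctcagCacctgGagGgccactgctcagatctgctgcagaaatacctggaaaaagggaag
Of all 50-base stretches of the annotated transcripts, the length of a read, 67.1% were unique to H2-T10 and 65.5% to H2-T22, and 1124 stretches were common to both, 31.7% of those of H2-T10 and 31.25% of those of H2-T22. The other members were easier to tell apart, with 86.4% unique stretches in H2-T23, 90.4% in H2-K1, 87.2% in H2-D1, 99.4% in H2-M3 and 100% in B2m. In BC023719 70.2% were unique, and the 29.8% that were not were common to A930015D03Rik, another antisense gene of the region. The values of H2-T10 and H2-T22 were estimates and not whole counts in all 48 libraries, so their split is uncertain to the extent that RSEM divided common reads.

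Promoter sequence was at hand for 8 of the 10 genes, all but H2-T10 and BC023719, from RefSeq (GRCm38.p6, 250 bases before to 50 after the start). The promoters of H2-T22 and H2-T23, which had higher levels together in DKO preadipocytes, and of H2-K1, a classical gene that did not, are shown 5′ to 3′ on the minus strand. They lie at chr17:36042693-36042992, chr17:36032652-36032951 and chr17:34000298-34000597. Capitals mark a match on either strand to the core of the interferon-stimulated response element (GAAA, any 2 bases, then GAAA) or to a κB element (GGGGA directly followed by TTCCCC), both known from class I regulation:
H2-T22: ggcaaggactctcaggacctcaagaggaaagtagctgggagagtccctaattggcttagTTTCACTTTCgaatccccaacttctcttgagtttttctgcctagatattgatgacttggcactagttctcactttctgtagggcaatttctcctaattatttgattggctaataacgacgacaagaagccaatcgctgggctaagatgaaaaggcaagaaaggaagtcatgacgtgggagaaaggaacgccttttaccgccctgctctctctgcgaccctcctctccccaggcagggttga
H2-T23: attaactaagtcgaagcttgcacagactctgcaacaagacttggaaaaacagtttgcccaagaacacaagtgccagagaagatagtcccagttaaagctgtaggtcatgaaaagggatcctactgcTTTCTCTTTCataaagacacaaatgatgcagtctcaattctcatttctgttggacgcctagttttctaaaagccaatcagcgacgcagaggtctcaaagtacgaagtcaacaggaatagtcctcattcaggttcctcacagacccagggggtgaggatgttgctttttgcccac
H2-K1: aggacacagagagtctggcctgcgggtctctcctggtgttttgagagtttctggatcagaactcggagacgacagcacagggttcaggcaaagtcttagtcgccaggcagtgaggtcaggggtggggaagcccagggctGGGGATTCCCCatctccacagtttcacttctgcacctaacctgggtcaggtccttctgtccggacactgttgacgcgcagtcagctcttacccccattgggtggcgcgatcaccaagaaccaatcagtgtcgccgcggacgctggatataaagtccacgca
The first motif was in the promoters of H2-T22, H2-T23 and B2m, 3 of 9 entries for the members (H2-K1 has 2 entries), and in 3.44% of the 32851 promoters of the same length. The second was in H2-K1 and H2-D1 and in 0.0304% of all promoters. No promoter of a member held both motifs, and H2-Q4, H2-Q7 and H2-M3 held neither string of letters in this window. Only exact strings were searched, so a promoter without a match may still hold a variant of either element. The promoters of H2-K1, H2-D1, H2-Q4, H2-Q7 and H2-M3 held tttcacttct, which differs from the match in H2-T22 only in its last letters.

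Libraries held 19809397 to 36006696 counts in preadipocytes (median 23978900) and 18962483 to 33083213 in MEFs (median 23901700), and 5.49% to 7.90% of a library's values were not whole. Hmgn2 was at 44.1, 32.4 and 50.9 CPM (counts scaled by library size) in WT and 0.108, 0 and 0 CPM in DKO preadipocytes at day 0 and did not pass 0.329 CPM in any DKO library, while Hmgn1 kept counts in DKO preadipocytes (73.7 to 97.7 CPM, against 76.9 to 171 CPM in WT) and overlapped with WT at day 9, so that of these genes Hmgn2 checks the labels. The 7 markers of preadipocytes and fibroblasts summed to 867 to 16294 CPM in preadipocyte cultures, and the 6 adipocyte markers summed to 149 to 415 CPM in the WT libraries of day 0 and 24528 to 25756 CPM in those of day 9. Markers of other cells were present: the 4 macrophage markers, genes of cells that themselves carry much class I, summed to 113 to 425 CPM in WT preadipocytes at day 0 and 6054 to 8110.5 CPM in WT MEFs. The 4 markers of T and NK cells and the 2 of B cells were at or under 0.246 CPM in all libraries. In such bulk samples, fewer cells of a type and less RNA per cell cannot be told apart.

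Levels can be compared between genes only per length, and on the scale of CPM per kilobase of annotated exon (mean ± SD, n = 3) B2m was the highest member in each group at day 0. In WT preadipocytes B2m had 576 ± 37.3 CPM per kilobase, H2-D1 46.2 ± 7.16 and H2-K1 31.6 ± 1.31. H2-T10 followed with 13.1 ± 1.32 and BC023719 with 8.98 ± 0.528. H2-Q4, H2-M3, H2-T22 and H2-T23 followed at 2.78 to 4.06 CPM per kilobase, each overlapping with the next, and H2-Q7 was lowest at 0.473 ± 0.0579. In DKO preadipocytes the order of the H2-T genes was another: H2-T22 came next after B2m and H2-D1 with 26.3 ± 4.16 CPM per kilobase, overlapping with H2-K1 at 23.7 ± 3.25, which in turn overlapped with H2-T23 at 18.3 ± 3.46. H2-T10 ranked 8 of 10 there, with 0.455 ± 0.122 CPM per kilobase. In WT MEFs, too, H2-T23 and H2-T22 stood above H2-T10, with H2-T23 at 21.2 ± 0.715, H2-T22 at 19.5 ± 0.511 and H2-T10 at 0.896 ± 0.092 CPM per kilobase. The tables of the 2 cell types were scaled separately, so levels are set side by side and not tested between them.

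A gene was called when its p-value, adjusted by the method of Benjamini and Hochberg, was under 0.05 and it differed 1.5-fold or more. Between DKO and WT preadipocytes this held for 4 of the 10 members at day 0, where 0.218% of 15123 genes were called, for 4 on day 3 (0.337% of all genes), for 7 on day 6 (11.6%) and for 4 on day 9 (1.24%). The members were chosen on this contrast, so nothing is read from these counts. The median log2 fold change of the members with a fitted value (9 of 10 at days 0 and 3, where BC023719 had no count in DKO cells, and 10 later) was -0.41, -0.24, -0.71 and -0.57 at the 4 days. With BC023719 taken as the lowest value it was -0.41 at day 0 and -0.29 at day 3, and the median of all genes tested lay between -0.01 and 0.00.

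H2-T22 was higher in all DKO preadipocyte libraries than in any WT library of the same day. At day 0 it had 10.5, 11.6 and 9.37 CPM in the 3 WT libraries and 75.8, 89.4 and 104 CPM in the 3 DKO libraries. At day 6, its lowest point in WT cells, it had 1.96, 1.47 and 1.6 CPM in WT and 29.8, 29.9 and 24.2 CPM in DKO libraries. The groups were far apart at each day, and the log2 fold change of DKO minus WT (± SE) was 3.10 ± 0.15, 3.61 ± 0.19, 4.02 ± 0.15 and 3.57 ± 0.11 over the course of days 0, 3, 6 and 9. Of all genes tested, 14.9%, 18.5%, 42.9% and 34.6% had libraries that did not overlap in either direction at these days.

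H2-T23 went the same way with a smaller difference. Its WT libraries had 7.62, 10.03 and 6.47 CPM at day 0 and its DKO libraries 64.5, 47.4 and 47 CPM. At day 9 the values were 12.2, 9.29 and 8.59 CPM in WT and 37.7, 60.5 and 35.6 CPM in DKO cells. The libraries of the 2 genotypes did not overlap at any day, and the log2 fold changes were 2.72 ± 0.20, 2.68 ± 0.19, 2.22 ± 0.29 and 2.12 ± 0.25 at days 0, 3, 6 and 9.

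H2-T10, the near-identical partner of H2-T22 in the sequences shown above, went the opposite way. It had 47.2, 47.6 and 39.6 CPM in WT and 1.1, 1.92 and 1.65 CPM in DKO libraries at day 0. At day 6 it had 7.66, 7.57 and 6.97 CPM in WT and 0.648, 0.39 and 0.223 CPM in DKO libraries. Again no DKO library reached a WT library, and the log2 fold changes were -4.87 ± 0.21, -3.98 ± 0.27, -4.19 ± 0.29 and -4.43 ± 0.19 at days 0, 3, 6 and 9.

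BC023719, the antisense gene beside H2-T10, was counted in WT preadipocytes and nearly nowhere else. Its WT libraries had 8.97, 9.18 and 8.2 CPM at day 0 and 5.56, 5.44 and 4.98 CPM at day 9. In DKO preadipocytes it had no count at days 0 and 3, against 606 and 651 counts over the 3 WT libraries, so that with a limit of 3 counts over the group it was at least 260.2-fold lower at day 0 and at least 239-fold lower at day 3. At day 6 there were 5 counts in DKO against 462 in WT cells (75.0-fold, 95% exact counting interval 31.9 to 232) and at day 9 1 count against 335 (353-fold, 63.0 to 13998). These limits and intervals cover counting error only. In the 24 MEF libraries it did not pass 2 counts.

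**Figure D1:**
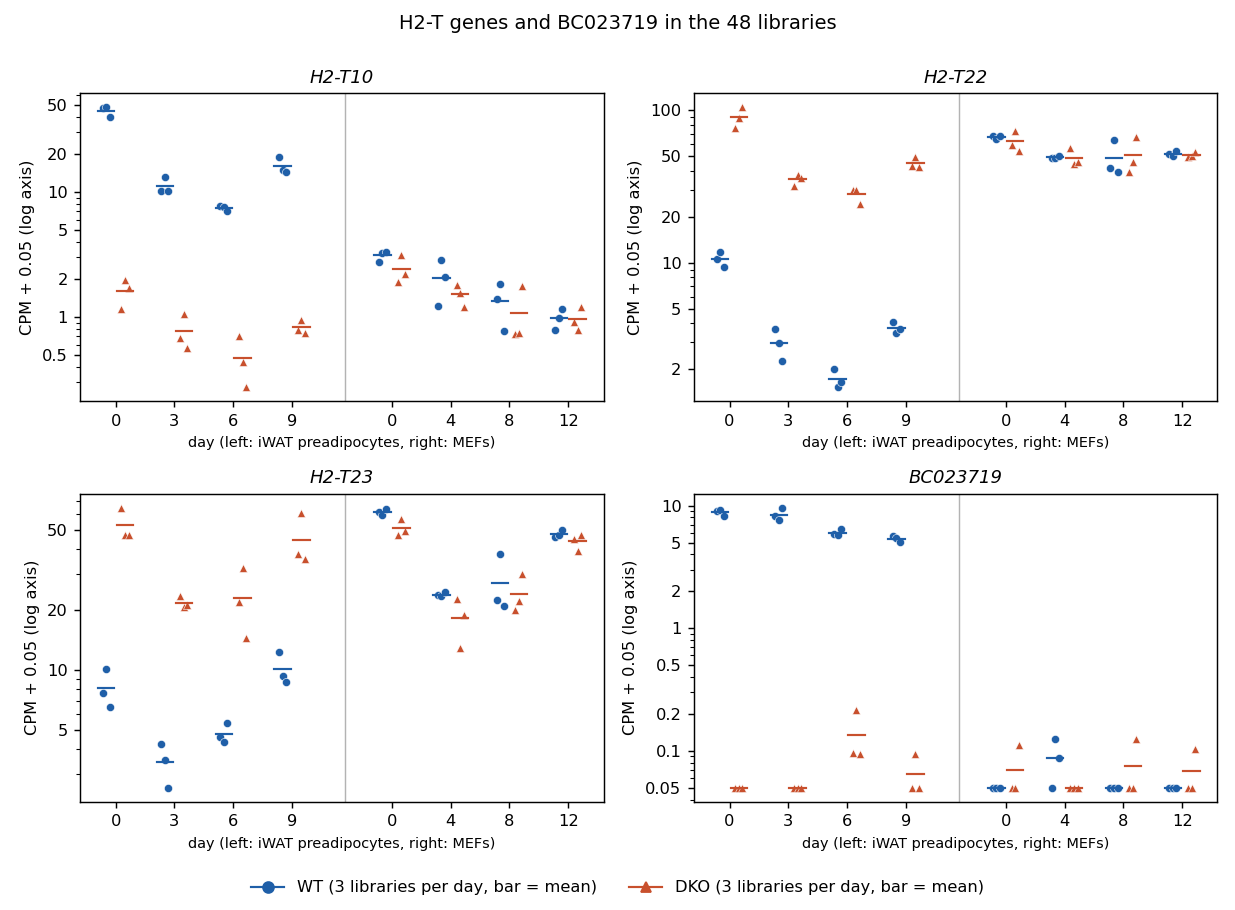
CPM with 0.05 added, on a log axis, of H2-T10, H2-T22, H2-T23 and BC023719 in each library by day, WT as circles and DKO as triangles, with a bar at the mean of 3 libraries. In preadipocytes the genotypes are apart at each day in all 4 panels, whereas in MEFs WT and DKO lie together, near the DKO preadipocytes for H2-T10 and BC023719.

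H2-T22 made up 16.3% to 26.3% of the counts assigned to H2-T10 and H2-T22 together in the 12 WT preadipocyte libraries (median 18.6%) and 97.4% to 99.1% in the 12 DKO libraries (median 98.3%). In MEFs the share was 94.6% to 98.6% in WT and 95.9% to 98.6% in DKO libraries. WT preadipocytes thus stood apart from the other 3 kinds of cell at each of the 4 days. Over all days the ranges of those 3 overlapped, but at day 0 the DKO preadipocytes, at 97.9% to 98.6%, lay above all MEF libraries. The sum of the pair, which a division of reads between the 2 genes cannot change, had a mean ± SD (n = 3) of 55.3 ± 5.53 CPM in WT preadipocytes of day 0 and 91.4 ± 14.5 CPM in those of DKO mice. At day 6 the sums were 9.08 ± 0.524 and 28.4 ± 3.46 CPM. The summed level was higher in all DKO than in all WT libraries at each day, so the difference in H2-T22 was larger than what H2-T10 lost. The counts of BC023719 and of all genes whose symbol starts with H2-T, members or not, were also summed before the fit. The log2 fold change of this sum was 0.94 ± 0.10, 1.11 ± 0.07, 1.19 ± 0.16 and 1.09 ± 0.17 at days 0, 3, 6 and 9 in preadipocytes. In MEFs this sum differed by -0.21 ± 0.11, -0.13 ± 0.13, -0.03 ± 0.28 and -0.09 ± 0.05 at days 0, 4, 8 and 12, and passed at none of them.

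**Figure D2:**
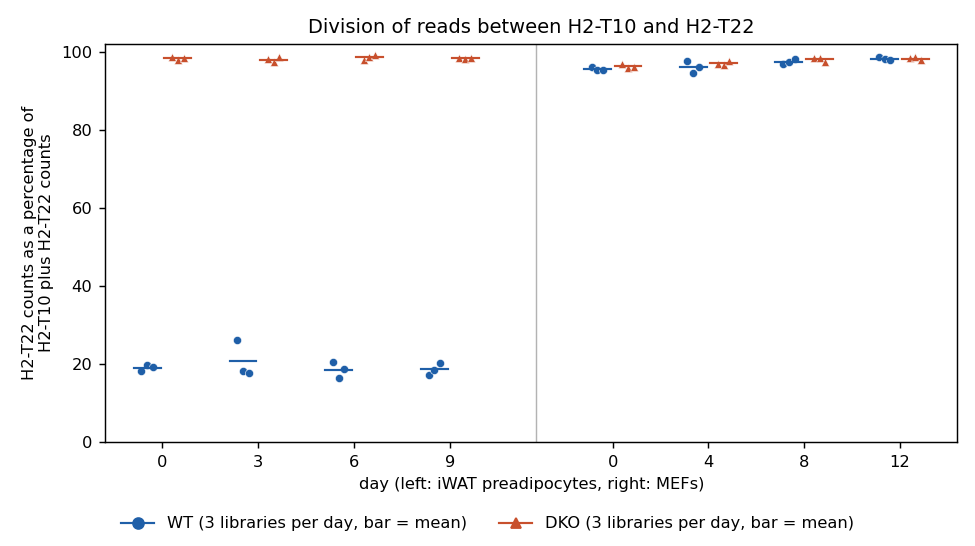
Counts of H2-T22 as a percentage of the counts of H2-T10 and H2-T22 together, in each library by day, WT as circles and DKO as triangles. The WT preadipocyte libraries lie between 16.3% and 26.3%, and the lowest of all others is at 94.6%.

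In MEFs none of the 9 members tested passed between DKO and WT cells by the quasi-likelihood test of edgeR (Benjamini-Hochberg adjusted). BC023719 was too low to be tested. The background over all genes tested was 0.102%, 0.0905%, 0.0595% and 7.98% on days 0, 4, 8 and 12. The adjusted p-values of the members from edgeR ranged from 0.162 to 0.799 at day 0, 0.796 to 0.980 at day 4, 0.671 to 0.993 at day 8 and 0.0245 to 0.888 at day 12, where the lowest, that of H2-D1, went with a log2 fold change of -0.13 ± 0.04 and so missed the fold threshold. Unadjusted p-values from edgeR were under 0.05 for 5, 1, 0 and 3 of the 9 members at the 4 days. DESeq2 and limma-voom called 0 of 9 at each day as well.

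H2-T22 had 67.3, 64.4 and 67.6 CPM in WT and 59.4, 73.5 and 54.1 CPM in DKO MEFs at day 0, and 51.3, 50.1 and 53.9 and 49.4, 50.03 and 53.1 CPM at day 12. The libraries overlapped at all 4 days, with log2 fold changes of -0.09 ± 0.12, -0.02 ± 0.11, 0.05 ± 0.27 and -0.05 ± 0.05. H2-T10 was low in both genotypes, at 2.7, 3.2 and 3.29 CPM in WT and 1.86, 3.11 and 2.15 CPM in DKO MEFs at day 0 (log2 fold change -0.37 ± 0.26). H2-T23 had 61.5, 59.1 and 63.2 CPM in WT and 47, 56.9 and 49.6 CPM in DKO MEFs at day 0, where all DKO libraries lay below the WT libraries by a log2 fold change of -0.26 ± 0.09 (edgeR adjusted p = 0.528). At day 12 its values overlapped, at 46.1, 47.3 and 49.9 CPM and 44.9, 39.2 and 47.1 CPM. The difference between the cell types was not tested, because the preadipocyte contrast chose the genes.

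**Figure D3:**
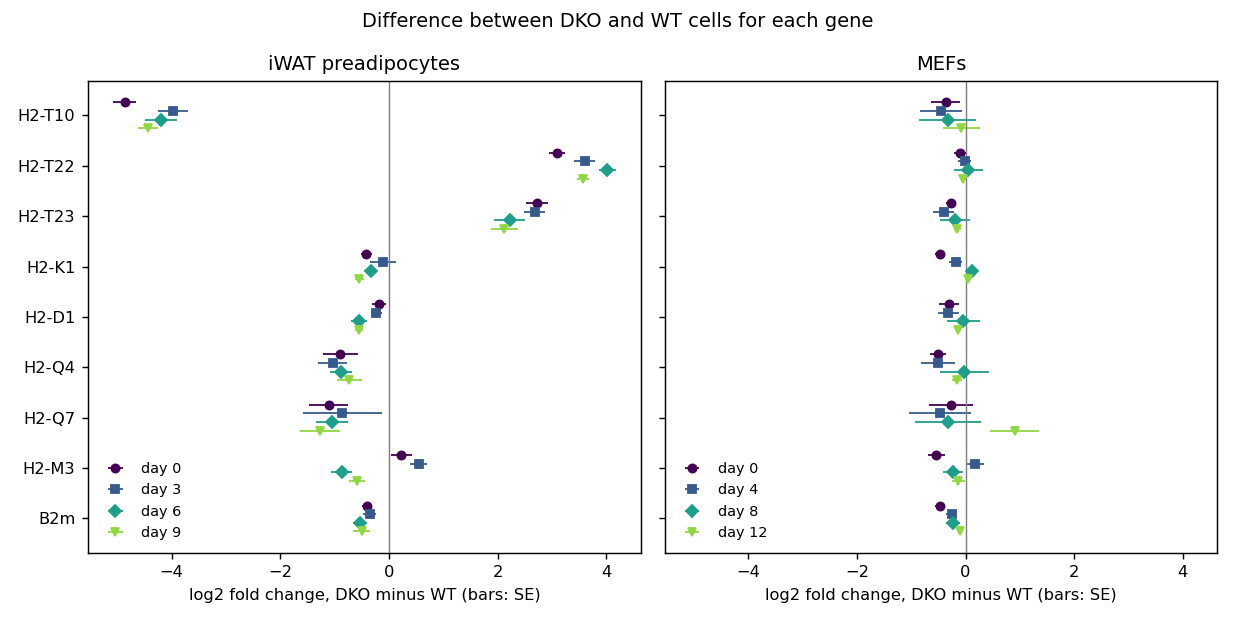
Log2 fold change of DKO minus WT cells (points, with SE as bars) for 9 members by day, in preadipocytes on the left and MEFs on the right, with BC023719 left out because its DKO counts were at or near 0. H2-T10, H2-T22 and H2-T23 lie 2 or more log2 units from 0 in preadipocytes and under 0.5 from it in MEFs.

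The classical genes differed less between the genotypes. In preadipocytes H2-K1 had 91.5, 97.2 and 89.9 CPM in WT and 68.6, 79.6 and 60.6 CPM in DKO libraries at day 0, and 474, 412 and 406 and 282, 322 and 303 CPM at day 9. H2-D1 had 466, 429 and 407 CPM in WT and 295, 321 and 296 CPM in DKO libraries at day 9. Both were lower in all DKO libraries at day 9, by log2 fold changes of -0.54 ± 0.09 and -0.55 ± 0.08, which is under the fold threshold. B2m had 481, 532 and 474 CPM in WT and 382, 352 and 389 CPM in DKO libraries at day 0, and its log2 fold changes were -0.41 ± 0.08, -0.35 ± 0.12, -0.53 ± 0.13 and -0.50 ± 0.16 at days 0, 3, 6 and 9. B2m was lower in all DKO libraries than in any WT library of its day at each of these days. Libraries did not overlap in either direction for 14.9%, 18.5%, 42.9% and 34.6% of all genes tested on days 0, 3, 6 and 9.

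Of the remaining non-classical members, H2-Q4 had 5.94, 7.26 and 6.47 CPM in WT and 4.43, 3.85 and 2.69 CPM in DKO preadipocytes at day 6, a log2 fold change of -0.88 ± 0.20. H2-Q7, which was low at 1.06 to 3.22 CPM in these 6 libraries, differed by -1.05 ± 0.29 at that day. H2-M3 had 5.3, 7.97 and 6.66 CPM in WT and 4.11, 3.74 and 3.3 CPM in DKO libraries at day 6 (-0.87 ± 0.19), but at day 3 its DKO libraries lay above the WT libraries by 0.55 ± 0.15. These 3 genes made up the calls that day 6 had beyond the H2-T genes and BC023719. Without WT replicate 3 or DKO replicate 3 of day 6 the count was 4 of 10 in place of 7, and without DKO replicate 2 of day 9 it was 10 of 10 in place of 4. H2-Q7 shares 14.0% of its 50-base stretches with H2-Q10 and H2-Q4 shares 9.68% with H2-Q6, so reads of the H2-Q genes may have been divided. Summed over all H2-Q genes, the log2 fold change was -0.99 ± 0.30, -0.95 ± 0.32, -0.61 ± 0.20 and -0.70 ± 0.14 on days 0, 3, 6 and 9. The sum was called on none of these days, day 6 included. The members were chosen on this contrast, so nothing is read from these calls of members or of the sum. Macrophage markers were lower in DKO preadipocytes as well, with sums of 4651 to 7923 CPM in WT and 1749 to 3608 CPM in DKO libraries at day 6 and 2334 to 5043 and 1131 to 2293 CPM at day 9, and the 3 leukocyte markers with 186 to 303 and 87.9 to 158 CPM at day 9. All 4 macrophage markers and all 3 leukocyte markers were above 3 counts in at least 1 library of each group, and their part in the class I differences was not tested.

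In MEFs at day 0, B2m had 843, 750.3 and 795 CPM in WT and 567, 565 and 599 CPM in DKO libraries, and H2-K1 had 238, 238 and 249 and 171, 184 and 166 CPM. Neither pair of groups overlapped, and the log2 fold changes were -0.47 ± 0.10 (edgeR adjusted p = 0.301) and -0.47 ± 0.08 (edgeR adjusted p = 0.162). H2-T23, H2-Q4 and H2-M3 also had all DKO libraries below all WT libraries, 5 of the 10 members in all, where 18.6% of the genes tested had libraries that did not overlap in either direction. At day 4 it was 2 members below and H2-M3 above (background 11.5%), at day 8 none (background 15.4%), and at day 12 H2-D1 and B2m below (background 47%). The summed macrophage markers at day 0 were 6054 to 8110.5 CPM in WT and 5488 to 6175 CPM in DKO MEFs, and the leukocyte markers 478 to 539 and 213 to 378 CPM. Their part in these differences was not tested. A test of the interaction of genotype and day over the 24 MEF libraries passed for none of the 9 members, beside 0.0177% of all genes (edgeR adjusted p = 0.335 to 0.984). Unadjusted p-values of that test were under 0.05 for 3 members, and the likelihood ratio test of DESeq2 called 1, H2-K1 (DESeq2 adjusted p = 0.0135, against 0.335 by edgeR, 0.469 by edgeR with library size only and 0.480 by edgeR with a replicate block).

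**Figure D4:**
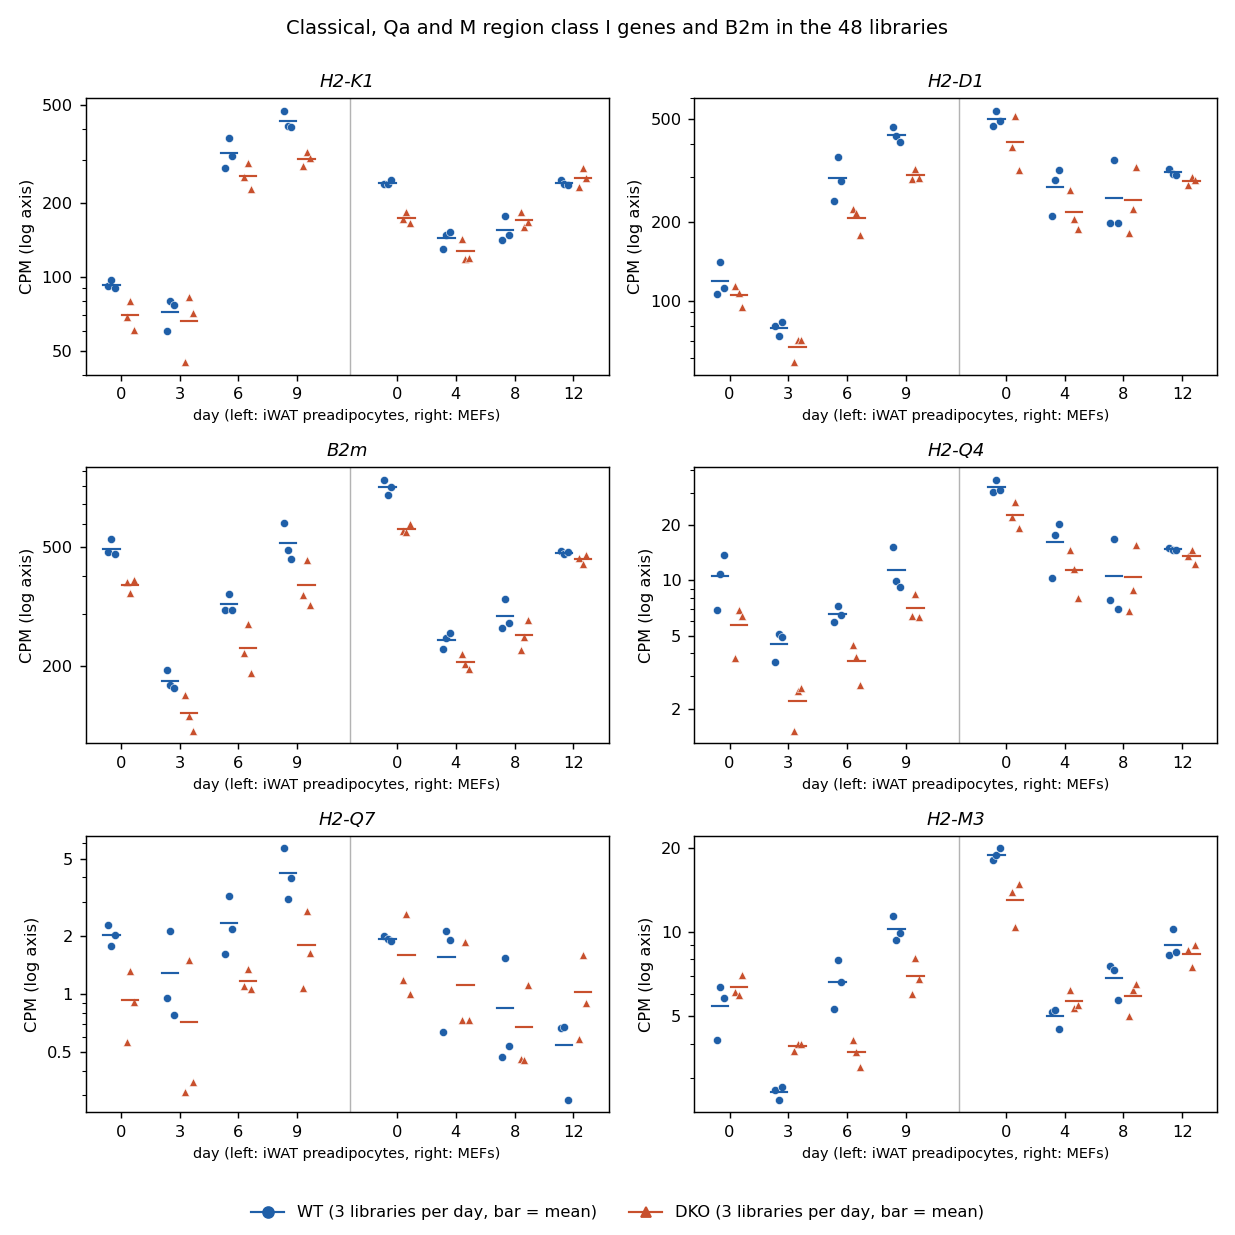
CPM on a log axis of H2-K1, H2-D1, B2m, H2-Q4, H2-Q7 and H2-M3 in each library by day, WT as circles and DKO as triangles, with a bar at the mean of 3 libraries. In preadipocytes H2-K1 and H2-D1 are higher at days 6 and 9 than at days 0 and 3 in both genotypes, while in WT MEFs the 6 genes are highest or near their highest at day 0.

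Over the days of differentiation in WT preadipocytes, the class I genes moved in different directions. At day 3, 7 of the 10 members had changed against day 0, and all 7 fell, where 24.7% of all genes were called. B2m fell from 481, 532 and 474 CPM at day 0 to 194, 174 and 169 CPM at day 3, a log2 fold change of -1.47 ± 0.11 (edgeR adjusted p = 3.08e-06). H2-T10 fell to 10.2, 13.1 and 10.2 CPM (log2 fold change -2.003 ± 0.14, edgeR adjusted p = 1.65e-06) and H2-T22 to 3.65, 2.93 and 2.2 CPM (-1.85 ± 0.19, 2.89e-05). H2-T23, H2-D1, H2-Q4 and H2-M3 made up the rest of the 7, with log2 fold changes between -1.24 and -0.60. BC023719 differed by -0.06 ± 0.12 and did not pass, although H2-T10 beside it fell. The call of H2-D1 was lost without WT replicate 2 of day 0 (log2 fold change -0.46) or of day 3 (-0.55). It was also lost when counts were scaled by library size only (-0.57) and without the filter on low counts (-0.54).

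By day 6 the classical genes were above day 0. Of the 10 members 7 were called, 2 up and 5 down, beside 53.1% of all genes. H2-K1 rose from 91.5, 97.2 and 89.9 CPM to 277, 366 and 309.6 CPM (log2 fold change 1.80 ± 0.13, edgeR adjusted p = 1.38e-07) and H2-D1 from 106, 140.4 and 111 CPM to 242, 358 and 287 CPM (1.33 ± 0.14, 3.79e-06). H2-T10, H2-T22, H2-T23, H2-Q4 and B2m were below day 0. The calls of H2-T23, H2-Q4 and B2m were lost without WT replicate 2 of day 0, which left 4 of 10, and those of H2-Q4 and B2m also without some single libraries of day 6. The call of H2-Q4 was lost as well without WT replicate 3 of day 0 (-0.42) and with a replicate block across days (-0.65). Without the filter on low counts the calls of H2-Q4 (-0.60) and B2m (-0.54) were lost. With library size only BC023719 gained a call (-0.66).

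At day 9 7 members were called, 4 up and 3 down, beside 52.7% of all genes. H2-K1 and H2-D1 had risen to 474, 412 and 406 CPM and 466, 429 and 407 CPM, log2 fold changes of 2.21 ± 0.13 and 1.86 ± 0.14 (edgeR adjusted p = 3.12e-08 and 2.69e-07). H2-M3 (0.91 ± 0.18, edgeR adjusted p = 0.000794) and H2-Q7 (1.06 ± 0.37, edgeR adjusted p = 0.0222) rose too, the last of these not without WT replicate 2 or 3 of day 0 or replicate 1 of day 9. The call of H2-Q7 was also lost in 1 fit over all 24 preadipocyte libraries. H2-T10, H2-T22 and BC023719 were the members that fell, by 1.47, 1.51 and 0.73 on the log2 scale. B2m, at 605, 490.0 and 457 CPM, differed from day 0 by 0.06 ± 0.11. In the same WT libraries the summed macrophage markers were 113 to 425 CPM at day 0, 54.9 to 197 at day 3, 4651 to 7923 at day 6 and 2334 to 5043 at day 9, and the leukocyte markers 7.77 to 26.3, 1.59 to 8.42, 144 to 259.8 and 186 to 303 CPM. The 5 class II genes summed to 11.7 to 14.3 CPM at day 9. The part of such cells in the rise of the classical genes was not tested.

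In DKO preadipocytes 4 of the 9 members tested were called between day 9 and day 0, 2 up and 2 down, beside 55.6% of all genes. H2-K1 rose to 282, 322 and 303 CPM (log2 fold change 2.11 ± 0.20, edgeR adjusted p = 4.39e-06) and H2-D1 to 295, 321 and 296 CPM (1.52 ± 0.12, 7.64e-07). H2-T22 fell from 75.8, 89.4 and 104 CPM to 42.8, 49.5 and 42.2 CPM (-1.01 ± 0.12, edgeR adjusted p = 2.83e-05). H2-T10 fell as well (-1.02 ± 0.38, edgeR adjusted p = 0.0318) from a level that was already at 1.1, 1.92 and 1.65 CPM, a call lost without any 1 of 4 libraries (replicates 2 and 3 of day 0 and 1 and 3 of day 9). Whether the time course differed between the genotypes was not tested in preadipocytes.

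In WT MEFs class I genes fell after day 0. At day 4 6 of the 9 members tested were called, all down, beside 33.2% of all genes, at day 8 7 (29.6%) and at day 12 6 (26.3%). B2m had 843, 750.3 and 795 CPM at day 0, 229, 249.8 and 259 at day 4, 269, 336 and 280.3 at day 8 and 488, 474 and 481 at day 12, with a log2 fold change of -1.70 ± 0.09 at day 4 (edgeR adjusted p = 1.33e-07). H2-M3 fell from 18.1, 18.9 and 19.98 CPM to 5.19, 5.28 and 4.52 CPM at day 4 (-1.93 ± 0.13, edgeR adjusted p = 7.35e-07). H2-K1 was lower at days 4 and 8 and back at 248, 238 and 235 CPM at day 12, a difference of -0.08 ± 0.09 from day 0 that did not pass (edgeR adjusted p = 0.497). H2-T23 had 23.7, 23.2 and 24.3 CPM at day 4 (-1.37 ± 0.18, edgeR adjusted p = 0.000103), while H2-T22 stayed under the fold threshold at days 4, 8 and 12 with -0.44 ± 0.15, -0.47 ± 0.15 and -0.44 ± 0.15. Single libraries decided the calls of H2-Q4 at day 4 (WT replicate 2 of day 0 and 1 of day 4), H2-T10 (replicate 3 of day 8) and H2-K1 (replicate 1 of day 8) at day 8, and H2-D1 (replicate 2 of day 0) and H2-Q7 (replicate 3 of day 12) at day 12. Without the filter on low counts the calls of H2-Q4 at day 4 and H2-D1 at day 12 were lost as well. In these libraries the summed macrophage markers were 6054 to 8110.5 CPM at day 0 and 3717 to 3765 at day 12 and the leukocyte markers 478 to 539 and 268 to 282 CPM, and their part was not tested.

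In DKO MEFs 2 of 9 members were called at day 12 against day 0, beside 25.6% of all genes, and both fell. H2-M3 went from 13.9, 10.5 and 14.9 CPM to 8.66, 7.51 and 9.02 CPM (-0.61 ± 0.17, edgeR adjusted p = 0.0163) and H2-T10 from 1.86, 3.11 and 2.15 CPM to 0.854, 0.733 and 1.15 CPM (-1.38 ± 0.40, edgeR adjusted p = 0.021). Without DKO replicate 2 of day 12 none was called, and without replicate 1 or 3 of day 0 1 was. Without replicate 2 of day 0 or replicate 1 of day 12 the call of H2-T10 was lost. In these same 2 fits H2-K1 was called as higher (0.62 and 0.60). H2-K1 went the other way in all DKO libraries, from 171, 184 and 166 CPM to 232, 276 and 252 CPM. Its log2 fold change of 0.57 ± 0.10 had the lowest adjusted p-value of the members (edgeR adjusted p = 0.00176) and missed the fold threshold alone, beside -0.08 ± 0.09 in WT MEFs. In the interaction test above, edgeR called no member and DESeq2 called H2-K1.

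The region around the H2-T genes was examined for other genes that differed. Within 500 kb on either side of the stretch from H2-T23 to H2-T10, 92 more genes are annotated, of which 22 to 26 were tested at a given day. Between DKO and WT preadipocytes 1 of 26, 1 of 22, 4 of 23 and 2 of 24 were called on days 0, 3, 6 and 9 (all genes 0.218%, 0.337%, 11.6% and 1.24%), and between DKO and WT MEFs none of 24, 23 and 22 at days 0, 4 and 8 and 1 of 24 at day 12 by edgeR, where 7.98% of all genes were called at day 12 (unadjusted p under 0.05 for 2, 0 and 1 at the first 3 days). A930015D03Rik (chr17:35994453-36038435), an antisense gene that overlaps H2-T22 and H2-T23 and holds letters of BC023719, was the one called at all 4 days in preadipocytes. At day 0 its WT libraries had 4.4 ± 0.281 CPM (mean ± SD, n = 3) and its DKO libraries 0.455 ± 0.203 CPM. The log2 fold change was -3.24 ± 0.34 there and -3.11 ± 0.28, -2.61 ± 0.28 and -3.08 ± 0.40 at days 3, 6 and 9. It was also the 1 gene called in MEFs at day 12, from 1.09 ± 0.125 CPM in WT to 0.529 ± 0.212 CPM in DKO cells (-1.07 ± 0.38, edgeR adjusted p = 0.038). The pseudogene H2-T-ps (chr17:36109234-36111658) was lower in DKO preadipocytes at day 6 (-1.20 ± 0.32) and day 9 (-3.04 ± 0.22), and it holds 6.05% of the 50-base stretches of H2-T23. No p-value is given for the preadipocyte contrast in this region, which the choice of members used.

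Prr3, Gnl1, Rpp21 and Trim39, the genes on either side of the H2-T interval, were not called at any day in either cell type. Prr3 had 8.55 ± 0.148 CPM in WT preadipocytes of day 0 and 12.7 ± 0.565 CPM in those of DKO mice, and its DKO libraries lay above all WT libraries at days 0, 3 and 9, by 0.57 ± 0.10, 0.64 ± 0.10 and 0.33 ± 0.13 on the log2 scale. At those days 14.9%, 18.5% and 34.6% of all genes tested did not overlap in either direction. Rpp21 differed by -0.43 ± 0.18 at day 0 and 0.39 ± 0.14 at day 6. Gnl1 had 65.7 ± 2.38 CPM in WT preadipocytes of day 0 and 67.3 ± 2.28 CPM in those of DKO mice, and Trim39, a ubiquitin ligase gene on the far side, 19.3 ± 1.26 and 19.8 ± 0.357 CPM. Farther out, Cdsn, the gene of corneodesmosin, was higher (1.89 ± 0.26) and Ppp1r18 lower (-0.80 ± 0.16) in DKO preadipocytes at day 6, when 11.6% of all genes were called. The differences between H2-T23 and H2-T10 thus lay among genes of both directions, with H2-T23 and H2-T22 higher and A930015D03Rik, BC023719 and H2-T10 lower in DKO preadipocytes.

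**Figure D5:**
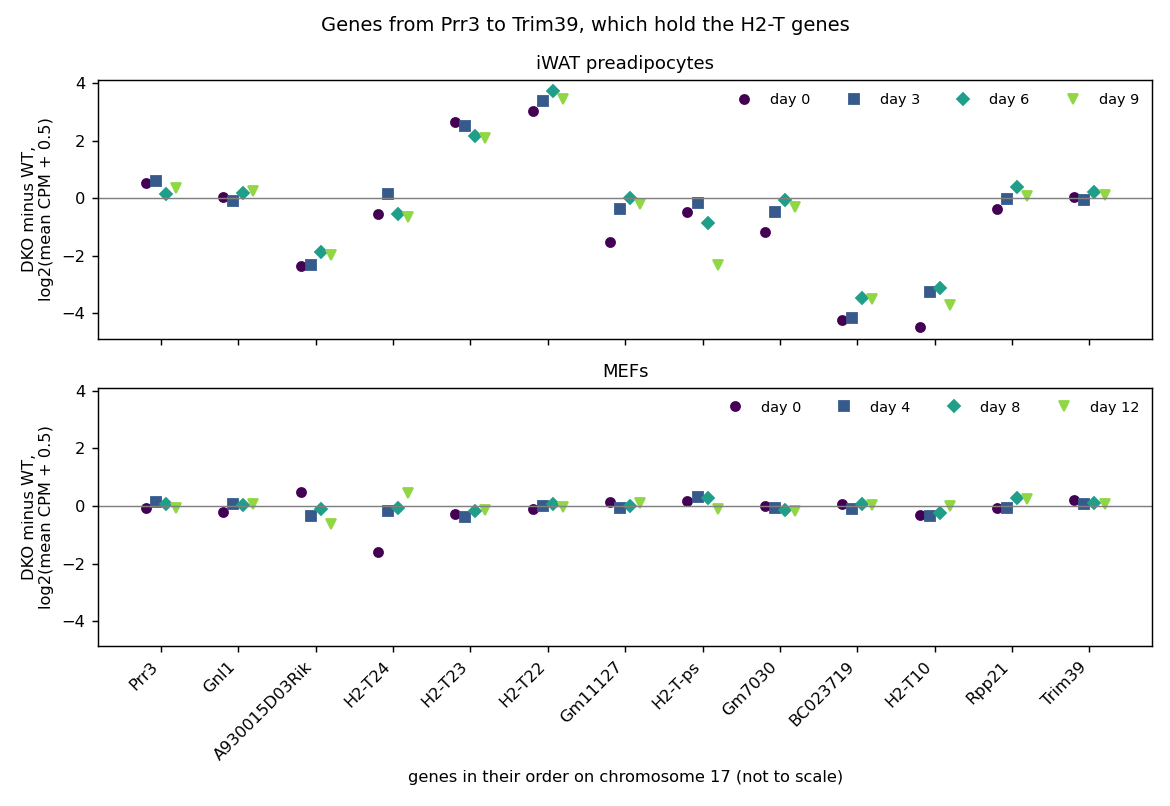
Difference of DKO minus WT cells in log2(mean CPM + 0.5) for the genes from Prr3 to Trim39 with at least 1 CPM in some group, in their order on chromosome 17 and not to scale, preadipocytes above and MEFs below, by day. Gnl1 and Trim39 lie near 0 in both cell types and Prr3 above 0 in preadipocytes at days 0 and 3. The large differences of preadipocytes at A930015D03Rik, H2-T23, H2-T22, BC023719 and H2-T10 have no counterpart of that size at the same genes in MEFs. H2-T24 is lower in DKO than in WT MEFs at day 0, although it was not called.

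Other genes of the class I pathway were counted from lists chosen by role. A list of 13 genes covered peptide processing and loading, the steps that trim peptides and fill class I molecules with them. None of these was called between DKO and WT preadipocytes at days 0 and 3, and 1 was at days 6 and 9 and in MEFs at day 12. This was each time Ide, a peptidase that also degrades insulin, which was higher in DKO cells (1.29 ± 0.12 at day 6, 1.28 ± 0.09 at day 9 and 0.63 ± 0.04 in MEFs, edgeR adjusted p = 0.00116, 0.0012 and 1.07e-08). The paper names Ide among the brown adipocyte genes most raised in DKO cells. Of the 7 genes of the immunoproteasome and its activators, which cut proteins into such peptides, Psmb8 alone was called, lower in DKO preadipocytes at day 6 (-1.09 ± 0.25, edgeR adjusted p = 0.0196) and day 9 (-0.94 ± 0.14, edgeR adjusted p = 0.0319). Of 25 regulators of class I transcription, Nlrc5 alone was called, lower in DKO preadipocytes at day 6 (-1.08 ± 0.20, edgeR adjusted p = 0.00977). Of 25 other class I and class I-like genes, 5 to 10 of which were tested at a given day, Procr was lower at day 6 and H2-Q6 at day 9 in DKO preadipocytes, and Cd1d1, which presents lipids, was higher in DKO MEFs at day 12 (0.87 ± 0.06, edgeR adjusted p = 3.66e-07). In all, 0 of 51, 0 of 49, 4 of 53 and 3 of 54 list genes tested were called in preadipocytes on days 0, 3, 6 and 9, where 0.218%, 0.337%, 11.6% and 1.24% of all genes were. In MEFs it was 0 of 53, 0 of 52, 0 of 50 and 2 of 55, where 0.102%, 0.0905%, 0.0595% and 7.98% were. At day 9 of preadipocytes the 3 calls became 1 without any 1 of 5 libraries and 6 without DKO replicate 2, at day 6 the 4 became 2 without WT replicate 3, and in MEFs at day 0 the 0 became 8 without DKO replicate 1.

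The median log2 fold changes of the 4 lists between DKO and WT preadipocytes at day 0 were 0.17 for the other class I genes, -0.05 for peptide loading, -0.07 for the immunoproteasome and 0.01 for the regulators. At day 6 they were -0.21, -0.14, -0.14 and -0.25. Where edgeR called none of the list genes, its unadjusted p-values were under 0.05 for 6 and 8 genes at days 0 and 3 of preadipocytes and for 13, 3 and 2 at days 0, 4 and 8 of MEFs. In the same 5 comparisons DESeq2 called 2, 3, 6, 0 and 0 of them and limma-voom 1, 0, 0, 0 and 0.

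Over time in WT preadipocytes, 6 of the 7 immunoproteasome genes rose between day 0 and day 9, when 52.7% of all genes were called in either direction. Psmb9, a catalytic subunit, rose from 1.02 to 6.71 CPM (2.71 ± 0.27, edgeR adjusted p = 2.32e-06) and Psme2, an activator subunit, from 39.8 to 99.4 CPM (1.32 ± 0.07, edgeR adjusted p = 2.25e-08). In DKO preadipocytes 5 of the 7 rose. Of the 13 loading genes 1 rose and 4 fell in WT cells, the 4 being the chaperones Calr, Canx and Pdia3 and the translocon gene Sec61a1, of which Pdia3 fell most (-1.40 ± 0.09, edgeR adjusted p = 7.17e-08). Of the 25 regulators 7 rose and 2 fell, and Nlrc5 rose from 2.67 to 10.9 CPM (2.03 ± 0.25, edgeR adjusted p = 1.54e-05). The interferon-γ receptor gene Ifngr1 rose with 2.76 ± 0.10 (edgeR adjusted p = 1.31e-09). The other class I genes had 7 up and 2 down of 10 tested, led by H2-Q10 (4.93 ± 0.36) and Cd1d1 (3.97 ± 0.15), with edgeR adjusted p-values of 1.98e-07 and 1.95e-09. The macrophage markers, Irf8 among the regulators being a gene of such cells (0.755 to 14.1 CPM), were higher at day 9 as given above, and their part was not tested.

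In WT MEFs between day 0 and day 12 14 of the 55 list genes tested were called, where 26.3% of all genes were, and in WT preadipocytes between day 0 and day 9 it was 29 of 55, where 52.7% were. Both counts are near the share over all genes. Of the immunoproteasome genes 1 rose and 2 fell, Psmb8 from 23.2 to 11.4 CPM (-1.10 ± 0.19, edgeR adjusted p = 0.000737) and Psmb9 (-0.95 ± 0.20, edgeR adjusted p = 0.00249). Of the regulators 1 rose and 5 fell, among them the interferon signalling genes Stat2 (-1.25 ± 0.20, edgeR adjusted p = 0.00058) and Irf9 (-0.94 ± 0.18, edgeR adjusted p = 0.00145). In DKO MEFs, where 25.6% of all genes were called, 4 of the 7 immunoproteasome genes rose and none fell, and among the regulators Ifngr1 rose (1.14 ± 0.23, edgeR adjusted p = 0.0032). None of the genes of the 4 lists passed edgeR's test of the interaction of genotype and day in MEFs (unadjusted p under 0.05 for 6), so these counts do not show a difference between the genotypes.

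The genes whose pattern over the 24 preadipocyte libraries was most like that of a member differed between H2-T22 and B2m. On log2(CPM + 0.5), among 13697 genes with a mean of at least 1 CPM, Pearson's r with H2-T22 was highest for Gm45104 (0.92), Gm3375 (0.90), Tmem181b-ps (0.90), Nudcd3 (0.90) and Idua (0.88). Gm45104 (chr7:18396516-18400865) was at 0 to 0.0881 CPM in WT and 3.12 to 12.1 CPM in DKO preadipocytes and ranged from 0 to 16.8 CPM in MEFs. Gm3375, a processed pseudogene on the same chromosome, had 1.17 to 2.60 CPM in WT and 9.82 to 34.1 CPM in DKO preadipocytes. In the 24 MEF libraries the same genes had r of -0.02, -0.09, -0.0013, 0.34 and 0.47 with H2-T22. For B2m they were Trim34a (0.97), Sp100 (0.95), Cpq (0.94), Tlr3 (0.94) and Cdc42 (0.93), with 0.86, 0.98, 0.92, 0.86 and 0.85 in MEFs. The libraries share days and genotypes, so these correlations are a description.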

How the data were processed

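RNA-seq of iWAT preadipocytes and MEFs was re-analysed (48 libraries, 3 per genotype, cell type and day). Per the labels and the study's methods, the authors used cutadapt 1.18 for trimming (paired reads of 50 bp), STAR 2.7.0f for alignment (mm10) and RSEM 1.3.0 to estimate reads per gene. They deposited these expected counts, unnormalized, 1 table per cell type. RSEM divides reads common to several genes.

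Expected counts were rounded and fitted with edgeR 4.0.16 (R 4.3.3): filterByExpr, TMM and robust quasi-likelihood tests, by day for DKO against WT, in 1 fit over 12 libraries for days against day 0 of a genotype, and over 24 MEF libraries for the interaction. A call needed a 1.5-fold difference and p under 0.05 after Benjamini-Hochberg adjustment. CPM are unrounded counts scaled by TMM over the 24 libraries of a cell type. The members and lists were chosen with earlier results of these data known. Named are all members, Hmgn1 and Hmgn2, up to 3 called genes of a list per direction by smallest p, list genes in counts of 5 or fewer, up to 5 neighbours within 500 kb by largest log2 fold change, and the 5 genes most like H2-T22 and B2m. Prr3, Gnl1, Rpp21, Trim39, Cdsn, Ppp1r18 and the rise of Nlrc5 in WT preadipocytes were chosen after their values were seen. The values of 1 list gene are not reported here. Alternatives included DESeq2 1.42.0 and limma 3.58.1. Tests were first run on simulated counts.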

Additional observations from a re-analysis of the deposited data

Results flagged for a closer look

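H2-T23 was flagged because its DKO and WT libraries did not overlap at day 0 in either cell type and lay in opposite directions. The preadipocyte contrast was used to choose this gene, so that part of the pattern is a description. At day 0 libraries did not overlap for 14.9% of all genes tested in preadipocytes and 18.6% in MEFs. All DKO preadipocyte libraries were above the WT libraries (log2 fold change of DKO minus WT 2.72), and all DKO MEF libraries were below them (-0.26). The difference between the cell types was not tested, and the value in MEFs did not pass on its own (edgeR adjusted p = 0.528).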

How the results depend on the processing

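Of 211 recomputed counts of members called, 198 stayed within 1.5 times the reported count, as did 131 of 160 counts of list genes. Of 2009 recomputed log2 fold changes of members, 1912 counted as unchanged and 6 reversed, and 41 uncalled values changed sign. Outside the DKO against WT contrast of preadipocytes, unchanged meant that the call was the same, and 38 lost a call and 19 gained one. Within that contrast it meant a move of no more than the standard error of the reported fit, and 34 moved by more. Calls of single members were not compared there. The reversed values came from summing BC023719 with all genes whose symbol starts with H2-T. There the sum stands for H2-T10 (0.94, 1.11, 1.19 and 1.09 at days 0, 3, 6 and 9 of preadipocytes) and BC023719 (1.19 and 1.09 at days 6 and 9). This follows from the sum itself, and members called were not counted under it.

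Between DKO and WT preadipocytes, list genes called went from 0 at day 0 to 2 with DESeq2, 1 with limma-voom, 1 without the filter and 2 in 1 fit over all days. At day 3 they went from 0 to 3 with DESeq2 and 3 over all days, at day 6 from 4 to 7 with DESeq2, 8 with library size only and 11 with no fold threshold, and at day 9 from 3 to 5 with DESeq2. Members called at day 9 went from 4 to 7 with DESeq2 and 7 with library size only. In MEFs, list genes went from 0 at day 0 to 6 with DESeq2, 2 without the filter and 2 over all days, and at day 12 from 2 to 1 with library size only, 1 with limma-voom, 1 over all days and 18 with no fold threshold. With no fold threshold members called at day 12 went from 0 to 1, list genes over time from 14 to 27 in WT and from 11 to 20 in DKO MEFs, and members in DKO MEFs from 2 to 4, as with library size only (4). The DESeq2 interaction test called 1 member against 0. The cause was not tested.

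Leaving out single libraries gave 4 to 8 members (day 6) and 3 to 10 (day 9), and 2 to 6 and 1 to 6 list genes, between DKO and WT preadipocytes, 0 to 8 list genes at day 0 of MEFs, 4 to 7 members at day 6 of WT preadipocytes and 0 to 2 at day 12 of DKO MEFs.

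After removal of group means, same-numbered WT and DKO libraries correlated at -0.73 to 0.67 over all cell types and days, so the numbers were not taken as pairs. In preadipocytes of day 3 all 3 of these pairs were positive (0.03 to 0.57). Over time, same-numbered libraries varied together in all 3 pairs for DKO preadipocytes at days 0 and 3 (r = 0.47 to 0.62). With a replicate block, list genes called in preadipocytes were 2 in place of 0 at day 3 and 1 in place of 3 at day 9, and no other count left 1.5 times its reported value. Over time it ended the call of H2-Q4 in WT preadipocytes at day 6 and added that of H2-Q7 in WT MEFs at day 8. With 3 libraries per group, values near the floor of 3 counts limit BC023719 in DKO cells and in MEFs.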
